A study of Mus musculus with 6 samples.

Results

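The cyclin-dependent kinase (CDK) inhibitors comprised 7 genes, Cdkn1a, Cdkn1b, Cdkn1c, Cdkn2a, Cdkn2b, Cdkn2c and Cdkn2d, taken as every gene probe whose transcript accession belongs to one of them. They are 7 of the 20145 named genes on the array, and were read by 10 of its 55681 gene probes, on 19 of 59305 gene spots. The study compared primary mammary epithelial cells (PMECs), dissociated from the mammary glands of female mice at 8 weeks of age on a mixed 129sv/C57Bl6 background. There were 3 wild-type (Plk2 +/+) and 3 Plk2 null (Plk2 -/-) samples, each on its own one-colour array, and no sample received a treatment. Polo-like kinase 2 is a serine/threonine kinase with roles in centriole duplication and the response to stress. The labels describe the cells as freshly dissociated gland, and do not say how the allele was made, whether a sample was 1 animal or a pool, or how epithelium was purified. The p-values below therefore measure the spread between these samples, which may be partly technical.

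CDK inhibitors hold back the kinases that drive the cell cycle. The INK4 proteins p16 (Cdkn2a), p15 (Cdkn2b), p18 (Cdkn2c) and p19 (Cdkn2d) bind Cdk4 and Cdk6 and keep them from D-type cyclins, which leaves the retinoblastoma protein able to restrain E2F factors. The CIP/KIP proteins p21 (Cdkn1a), p27 (Cdkn1b) and p57 (Cdkn1c) bind cyclin and kinase together, block Cdk2 complexes and can also help D-type cyclins assemble with their kinases. In the mammary gland these genes take part in the balance between growth of the ducts and alveoli, differentiation and senescence.

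Of the 7 genes, 5 had a positive and 2 a negative mean difference, null minus wild type, and 0 passed an adjusted p of 0.05 in either direction (limma, Benjamini-Hochberg over all 24609 entries tested). In the same fit 0.219% of entries were called higher and 0.333% lower in null, and 52.4% of all entries had a positive difference. At an unadjusted p under 0.05, 2 of the 7, Cdkn2a and Cdkn2c, lay higher in null and 2, Cdkn1a and Cdkn2b, lower, beside 13.1% and 9.65% of all entries, or 22.8% in either direction. The median difference of the 7 was 0.12 on the log2 scale and that of all entries 0.026. After scaling, null and wild-type values did not overlap for 3 genes, Cdkn2c and Cdkn2a, at 1.69 and 1.73 times wild type, and Cdkn1a, at 0.725 times. These are 2 genes with null higher and 1 with null lower, where 19.1% and 12.1% of all entries were separated in these directions. In either direction 31.2% of all entries were separated, so 3 of 7 genes is close to the background.

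Promoter windows are shown for these 3 genes, since each has more than 1 annotated start and the array reads a transcript rather than a start. The RefSeq promoter table (build GRCm38.p6) held 9 windows for 6 of the 7 genes, with Cdkn1c unmatched. Each window is the 250 bases before the first transcribed base, written 5′ to 3′ on the gene's strand, with E2F words and GC boxes in capitals.
Cdkn2a, upstream start: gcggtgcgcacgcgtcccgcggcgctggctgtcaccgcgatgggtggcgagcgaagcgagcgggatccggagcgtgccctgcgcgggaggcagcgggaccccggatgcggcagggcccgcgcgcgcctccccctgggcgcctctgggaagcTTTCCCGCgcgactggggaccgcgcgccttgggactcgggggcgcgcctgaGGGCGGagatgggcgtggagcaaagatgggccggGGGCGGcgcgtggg
Cdkn2a, inner start: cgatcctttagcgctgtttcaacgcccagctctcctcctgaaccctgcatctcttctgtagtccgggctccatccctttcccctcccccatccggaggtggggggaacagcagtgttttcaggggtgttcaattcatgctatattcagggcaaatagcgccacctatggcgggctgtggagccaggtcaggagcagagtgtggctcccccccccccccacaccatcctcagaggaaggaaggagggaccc
Cdkn2c, upstream start: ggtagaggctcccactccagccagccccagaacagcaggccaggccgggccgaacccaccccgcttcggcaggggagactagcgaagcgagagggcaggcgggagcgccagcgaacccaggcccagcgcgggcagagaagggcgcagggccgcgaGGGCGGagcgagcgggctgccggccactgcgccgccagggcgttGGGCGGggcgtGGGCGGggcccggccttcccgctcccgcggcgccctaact
Cdkn1a, upstream start: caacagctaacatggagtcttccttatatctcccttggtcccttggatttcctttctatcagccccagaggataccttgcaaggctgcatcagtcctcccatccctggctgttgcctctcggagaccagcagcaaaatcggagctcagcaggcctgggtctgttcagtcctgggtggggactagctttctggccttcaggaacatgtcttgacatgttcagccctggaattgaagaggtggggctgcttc
Cdkn1a, inner start: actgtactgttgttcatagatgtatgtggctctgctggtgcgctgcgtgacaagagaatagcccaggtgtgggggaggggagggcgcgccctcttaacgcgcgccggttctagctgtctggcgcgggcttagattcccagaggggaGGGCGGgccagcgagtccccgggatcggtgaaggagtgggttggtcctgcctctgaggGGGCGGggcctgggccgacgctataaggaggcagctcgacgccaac
The upstream Cdkn2a window lies at chr4:89294620-89294869 and the inner one at chr4:89282193-89282442, both on the minus strand. The gene is known to use separate first exons for p16 and for Arf, a p53-activating protein read in another frame. The upstream Cdkn2c window lies at chr4:109666757-109667006 on the minus strand, and the Cdkn1a windows at chr17:29090729-29090978 and chr17:29093519-29093768 on the plus strand.

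The words searched, on both strands, were TTTCCCGC, TTTCGCGC, TTTGCCGC and TTTGGCGC for E2F, GGGCGG for the GC box, TTTGAA for the cell cycle homology region, TATAAA for the TATA box and CGGAAG for Ets factors. No word overlaps another in the windows shown. The upstream Cdkn2a window was the only 1 of the 9 with an E2F word, TTTCCCGC, 99 to 92 bases before the start, against 1.86% of the 32851 windows of the table. It also held 2 GC boxes and 40 CpG dinucleotides, where the median window held 6. The inner Cdkn2a window held none of the words and 7 CpG. The Cdkn2c window shown held 3 GC boxes and 29 CpG, and the inner Cdkn1a window 2 GC boxes and 19 CpG, while the upstream Cdkn1a window held neither kind of word and 2 CpG. A GC box occurred in 32.7% of all windows. Of the windows not printed, Cdkn1b held 1 GC box, Cdkn2d held 3, the other Cdkn2c window held none of the words, and Cdkn2b held 1 TTTGAA and 1 CGGAAG, words found in 16.0% and 13.6% of windows; TATAAA occurred in 12.4% of all windows and in none of the 9. These matches are letters in a window and no measure of a factor's binding.

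The arrays were first checked against the labelled genotype. The Plk2 probe gave processed signals, background-corrected brightness on a linear scale, of 1160 to 1472 in wild type and 1.87 to 2.44 in null, and none of the 3 null arrays had it well above background (log2 difference -9.32, limma adjusted p = 3.65e-06). The share of gene probes well above background was 50.2% to 52.2% in wild type and 51.2% to 54.7% in null. All arrays shared 1 slide, with wild type in row 1 and null in row 2, so that row and genotype cannot be told apart. Along principal component 2, which held 23.5% of the variance, Plk2 null 3 lay at 74, apart from the other 5 arrays at -26.5 to 2.96. Several of the values that moved with null 3 are also given without it.

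**Figure D1:**
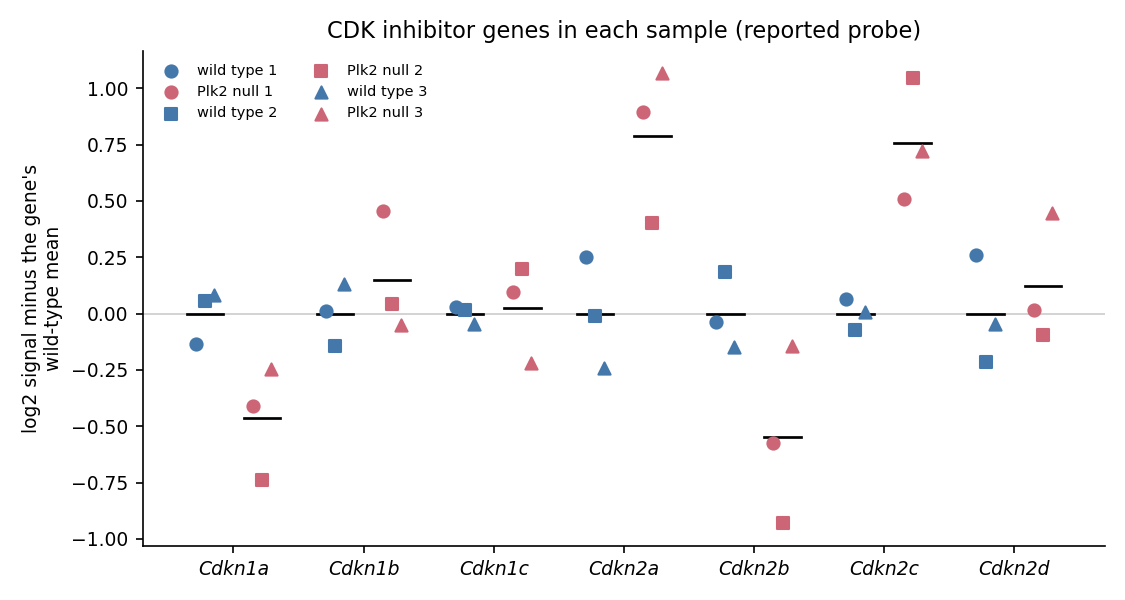
Log2 processed signal of each CDK inhibitor gene's reported probe in the 6 samples, minus that gene's wild-type mean; circles, squares and triangles are samples 1, 2 and 3, blue for wild type and red for Plk2 null, and bars are group means. Null points lie apart from wild type for Cdkn1a (below) and for Cdkn2a and Cdkn2c (above), while for Cdkn1b, Cdkn1c, Cdkn2b and Cdkn2d the ranges of the groups overlap.

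Among the CIP/KIP genes, Cdkn1a encodes p21, the inhibitor best known as a target of p53. Its reported probe (NM_007669) gave processed signals of 8879, 9765 and 11243 in wild type 1, 2 and 3 and of 8737, 6464 and 7615 in Plk2 null 1, 2 and 3. All 3 null values lay below all 3 wild-type values, with null 1 close under wild type 1 before scaling. Relative to each array's 75th percentile log2 levels were 5.23 ± 0.12 (SD, n = 3) for wild type and 4.77 ± 0.25 for null. The difference was -0.46 (SE 0.18), a level 0.725 times that of wild type with a 95% interval of 0.541 to 0.970, and it did not pass (limma adjusted p = 0.187).

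Cdkn1a is the most heavily sampled of the 7, because its probe was printed as 10 spots on each array. After removal of spots marked as outliers, 10, 6 and 7 spots remained in wild type 1, 2 and 3, and 9, 10 and 10 in null 1, 2 and 3. The SD between spots of an array was 0.0209 to 0.0746 on the log2 scale, below the SD between arrays of 0.12 in wild type and 0.25 in null. The spread that limits this comparison is thus that between samples and not that between spots.

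**Figure D2:**
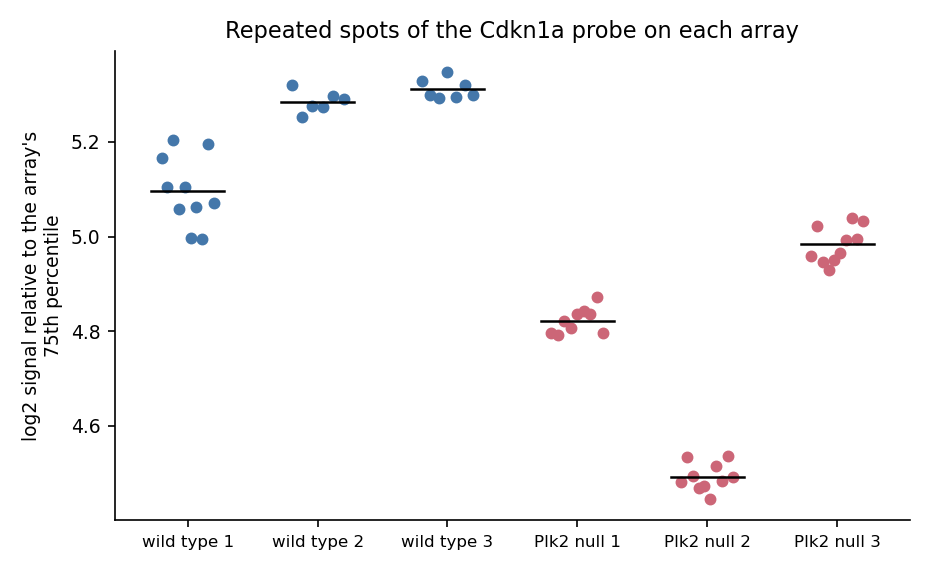
Log2 signal of every used spot of the reported Cdkn1a probe, relative to the array's 75th percentile, by array; bars are array means. The spots of an array cluster tightly (SD 0.0209 to 0.0746) around means of 5.10, 5.28 and 5.31 in wild type and 4.82, 4.49 and 4.98 in null.

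In the authors' deposited table those spots appear as 10 separate rows. Their unadjusted p-values ran from 0.00471 to 0.0392 and their ratios of wild type over null from 1.37 to 1.61. Of the 10 rows, 2 had both p under 0.01 and a ratio over 1.4, although all 10 read the same probe on the same 6 arrays. The rows are repeated readings of 1 measurement and are counted here once.

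A second Cdkn1a probe carries the accession of the gene's other RefSeq transcript (NM_001111099). It was dim, with signals of 8.36, 4.26 and 17.4 in wild type and 11.8, 14.0 and 18.3 in null, and cleared background on 1 of 3 wild-type and 3 of 3 null arrays. The groups overlapped and the difference was 0.69 (SE 0.48, limma adjusted p = 0.430), or 0.016 with normexp background correction. Its sign is opposite to that of the reported probe, so the mean of both Cdkn1a probes gave a difference of 0.11 (adjusted p = 0.835).

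Cdkn1b encodes p27, which responds to mitogens and is controlled largely by degradation of the protein. Its probe (NM_009875) gave signals of 815, 705 and 966 in wild type and of 1317, 919 and 724 in null. Null 1 stood highest, and null 2 and null 3 lay within the wild-type range. The difference was 0.15 (SE 0.18, limma adjusted p = 0.660) with a 95% interval of -0.29 to 0.59, and without null 1 it was -0.0048.

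Cdkn1c encodes p57, from an imprinted gene expressed mainly from the maternal allele. Its probe (NM_009876) gave signals of 2264, 2169 and 2343 in wild type and of 2819, 2819 and 1770 in null. The wild-type arrays were close to one another, while null 1 and null 2 lay above them and null 3 below. The difference was 0.025 (SE 0.16, limma adjusted p = 0.937), the smallest of the 7, and its 95% interval of -0.36 to 0.41 bounds a change at 0.781 to 1.33 times wild type. Its sign turned under 4 of 18 alternatives in processing.

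Among the INK4 genes, Cdkn2a gave the largest difference of the 7. Its reported probe (NM_009877) gave signals of 261, 210 and 202 in wild type and of 485, 320 and 425 in null. All null values lay above all wild-type values, with null 2 nearest to them. Centred log2 levels were -0.25 ± 0.25 (SD, n = 3) for wild type and 0.54 ± 0.34 for null. The difference was 0.79 (SE 0.23, limma adjusted p = 0.121), or 1.73 times wild type with a 95% interval of 1.19 to 2.52. Both Cdkn2a probes carry one of the gene's 2 RefSeq mRNA accessions, and no source used here gives their place along the transcript, so p16 and Arf messages cannot be told apart from this signal.

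The second Cdkn2a probe was dim, at 10.3, 13.3 and 5.27 in wild type and 11.2, 10.9 and 9.65 in null. It cleared background on 1 of 3 wild-type and 2 of 3 null arrays, the groups overlapped, and the difference was 0.16 (SE 0.37, limma adjusted p = 0.816, 95% interval -0.72 to 1.05). The mean of both Cdkn2a probes gave 0.48. The second probe's interval is wide enough to hold the reported probe's difference as well as none.

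Cdkn2b, which lies beside Cdkn2a in the genome and encodes the TGF-beta-responsive inhibitor p15, was read by a weak probe (NM_007670). Its signals were 30.3, 34.2 and 30.7 in wild type and 24.9, 18.1 and 26.1 in null. These signals did not overlap, but after scaling null 3 (-3.20) stood level with wild type 3 (-3.21), so the scaled groups did. The difference was -0.55 (SE 0.23, limma adjusted p = 0.218), or 0.683 times wild type with a 95% interval of 0.468 to 0.998. It was -0.75 without null 3, -0.25 with normexp background correction and -0.21 with the deposited normalized values.

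The second Cdkn2b probe carries the same accession and was weaker still, clearing background on 2 of 3 wild-type arrays and 1 of 3 null arrays. Its signals were 9.40, 13.1 and 11.8 in wild type and 11.5, 7.15 and 13.1 in null, which overlap. The difference was -0.22 (SE 0.30, limma adjusted p = 0.699). The neighbours Cdkn2a and Cdkn2b thus had differences of opposite sign from their reported probes, neither of which passed; the difference between the genes was not tested.

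Cdkn2c encodes p18, an INK4 protein known for its part in luminal progenitor growth in the mammary gland, and had the smallest p of the 7. Its probe (NM_007671) gave signals of 132, 116 and 138 in wild type and of 214, 288 and 193 in null. The wild-type values were tightly grouped, and all null values lay above them with null 2 highest. Centred log2 levels were -1.04 ± 0.068 (SD, n = 3) for wild type and -0.28 ± 0.27 for null, a difference of 0.76 (SE 0.18), or 1.69 times wild type with a 95% interval of 1.26 to 2.27. It stood at place 1082 of 24609 by p (limma adjusted p = 0.0897), and passed under 1 of 18 alternatives, with array weights (0.79, adjusted p = 0.0499).

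Cdkn2d encodes p19, the INK4 protein whose message is known to vary through the cell cycle in many cells. Its probe (NM_009878) gave signals of 1682, 1167 and 1480 in wild type and of 1689, 1455 and 1771 in null. The groups overlapped, with null 1 and null 3 above the highest wild-type signal; after scaling only null 3 was above the wild-type range. The difference was 0.12 (SE 0.21, limma adjusted p = 0.751) with a 95% interval of -0.38 to 0.62, and without null 3 it was -0.038.

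**Figure D3:**
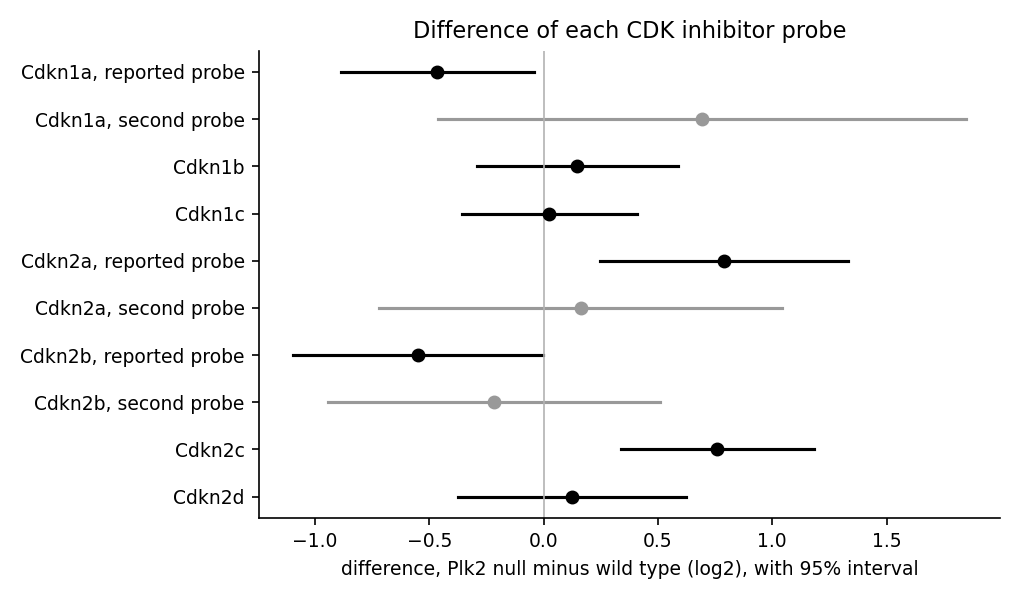
Difference, Plk2 null minus wild type (log2), of each of the 10 CDK inhibitor probes with its 95% interval from the limma fit; black marks the reported probe of each gene and grey the dim second probes. Intervals lie clear of 0 for the reported probes of Cdkn2a and Cdkn2c (above) and of Cdkn1a (below), that of Cdkn2b ends at 0.00 to 2 decimals, and no probe passed after adjustment.

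The 3 null samples did not share 1 order across the genes. Against the wild-type mean, Cdkn2c stood at 0.51, 1.04 and 0.72 in null 1, 2 and 3, while Cdkn2a stood at 0.90, 0.40 and 1.07. Null 2 was thus farthest from wild type for Cdkn2c and nearest for Cdkn2a. Cdkn1a stood at -0.41, -0.74 and -0.25 and Cdkn2b at -0.57, -0.93 and -0.15, with null 2 lowest and null 3 nearest to wild type for both. Without null 2, Cdkn2c stood at 0.62, Cdkn1a at -0.33, Cdkn2b at -0.36 and Cdkn2a at 0.98.

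In the authors' deposited table the ratios had the direction found here for Cdkn2a, Cdkn2b, Cdkn2c, Cdkn1b and Cdkn2d, and the opposite one for Cdkn1c. For Cdkn2c it gave a ratio of wild type over null of 0.662 and an unadjusted p-value of 0.0127, and for Cdkn2a 0.644 and 0.0654. For Cdkn2b the authors' deposited table gave 1.16 and 0.0668, and for Cdkn1b, Cdkn1c and Cdkn2d ratios of 0.913, 1.03 and 0.906. No CDK inhibitor row other than those of Cdkn1a had p under 0.01 there.

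**Figure D4:**
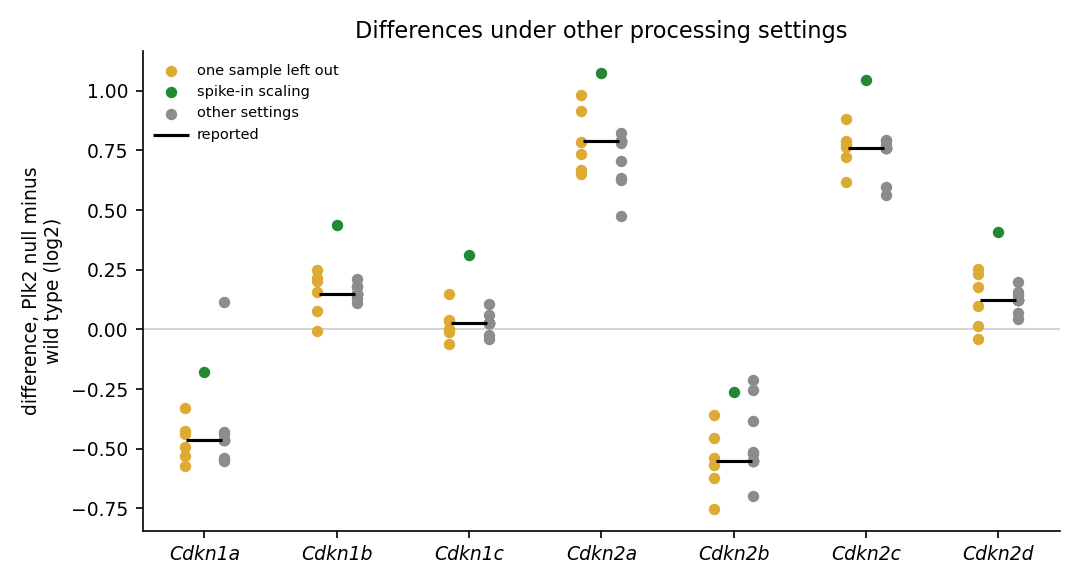
Difference, Plk2 null minus wild type (log2), of each gene under the alternatives in processing; bars are the reported values, yellow points leave out 1 sample, green is scaling on spike-in controls and grey the others. Cdkn2a, Cdkn2c and Cdkn2b kept their sign under all 18, some of which change only the p-value and cannot move a difference. The grey Cdkn1a point at 0.11 is the mean of its reported and dim probes.

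The scale on which arrays are matched moved all of these values together. With arrays scaled on spike-in control spots, RNA of known amount added to each sample, the median of all entries was 0.31 in place of 0.026. On that scale Cdkn1a was at -0.18 and Cdkn2b at -0.26, while Cdkn2a was at 1.08 and Cdkn2c at 1.05. Cdkn1b, Cdkn1c and Cdkn2d were at 0.44, 0.31 and 0.41, near or slightly above the median of all entries. This scaling shifts the difference of every gene by the same amount, so the order of the genes could not change.

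The partners that the inhibitors bind leaned higher in null. Of 13 cyclin, kinase and replication genes listed, 9 were tested, and 8 had a positive and 1 a negative difference, with a median of 0.69 and 0 called. Among all entries, 52.4% had a positive difference. Ccnd1, the cyclin that INK4 proteins keep from Cdk4, had log2 levels of 2.43, 2.90 and 3.04 in wild type and 3.73, 4.09 and 3.78 in null, with no overlap (difference 1.08, SE 0.21, limma adjusted p = 0.0695). The S and M phase cyclins Ccna2 and Ccnb1 had differences of 2.33 (SE 0.51) and 2.59 (SE 0.58), and the kinase Cdk2 one of 0.60 (SE 0.17, limma adjusted p of the 3 between 0.0822 and 0.116). Ccnd1 passed under 3 of 18 alternatives, Ccna2 under 3 and Ccnb1 under 4. The genes named were picked by small p in these same arrays, and Ccnb1 is also in the list of mitosis and proliferation genes.

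Pocket proteins and E2F factors, which act downstream of these kinases, had 9 of 10 listed genes tested, all 9 with positive differences, a median of 0.67 and 0 called. The 4 with the smallest p were Rbl1 (0.96, SE 0.31), which encodes the pocket protein p107, the repressor E2f7 (0.75, SE 0.28), Rb1 (0.45, SE 0.18) and the activator E2f2 (0.67, SE 0.27), with limma adjusted p from 0.144 to 0.208. Their null values lay above wild type in all 4, which were picked by small p in these same arrays. Over the list 4 of the 9 tested were separated in this way, beside 19.1% of all entries. Without null 2 the median of the 9 was 0.32, E2f7 was at 0.43 and E2f2 at 0.43.

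The list of genes that control turnover of p27 and p21 proteins had 14 of 15 members tested, 11 positive and 3 negative, with a median of 0.26 and 0 called. Cks1b and Cks2, small kinase-binding proteins of which the first is a cofactor of p27 degradation, had differences of 1.07 (SE 0.26) and 1.17 (SE 0.27). Dtl, part of the ligase that removes p21 during S phase, had one of 1.59 (SE 0.37), and Cops5, linked to export of p27 from the nucleus, one of 0.50 (SE 0.16, limma adjusted p of the 4 between 0.0891 and 0.140). The list's median was 0.13 without null 2 and 0.54 with spike-in scaling.

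Regulators of CDK inhibitor transcription gave the only call among the pathway genes. Of 30 listed, 25 were tested, 9 positive and 16 negative. The median was -0.17 (-0.049 without null 2, -0.089 without null 3) and turned to 0.12 with spike-in scaling. Of the 25, 0 were called higher and 1, Ets1, lower, beside 0.219% and 0.333% of all entries. Ets1, a transcription factor known to activate the p16 promoter and abundant in lymphocytes, had log2 levels of 3.44, 3.58 and 3.57 in wild type and 2.30, 2.15 and 2.62 in null. It fell by 1.17 (SE 0.17, limma adjusted p = 0.0495), and the groups did not overlap. The call sits at the threshold: it held under 8 of 18 alternatives, and was lost on leaving out wild type 1, wild type 2, wild type 3, null 1 or null 2 (adjusted p = 0.149, 0.160, 0.123, 0.106 and 0.109), all with the same sign.

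Id1, a dominant-negative partner of Ets and basic helix-loop-helix factors that represses p16, stood next, with log2 levels of 0.11, 0.42 and 0.60 in wild type and -1.41, -1.96 and -0.99 in null. Its difference was -1.83 (SE 0.27, limma adjusted p = 0.0516), and it passed under 9 of 18 alternatives. Bmi1, the Polycomb protein that silences the Cdkn2a locus, had a difference of 0.55 (SE 0.17) and Foxo3, an activator of Cdkn1b, one of 0.70 (SE 0.23), with adjusted p of 0.138 and 0.149. The p53 gene Trp53 and its target Mdm2, named here after their values were seen, had differences of 0.46 (SE 0.21) and -0.28 (SE 0.13), with limma adjusted p of 0.261 and 0.266. With spike-in scaling Mdm2 was at 0.0064, and without wild type 2 Trp53 was at 0.29.

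Cdkn3 shares the symbol root but encodes a phosphatase of CDKs, a gene expressed with the mitotic programme. Its log2 levels were -1.85, -2.45 and -2.48 in wild type and -0.76, 0.98 and -0.22 in null, without overlap. The difference of 2.26 (SE 0.45, limma adjusted p = 0.0718) was larger than that of any of the 7 inhibitors, and passed under 4 of 18 alternatives. Cdkn2aip and Cdkn2aipnl, whose names come from binding of the Arf protein by the first, had differences of 0.26 (SE 0.27) and 0.47 (SE 0.18), with adjusted p of 0.598 and 0.195. Cdkn2aip was at 0.068 without null 3, 0.49 without wild type 3 and 0.097 with normexp background correction.

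Genes lying near the inhibitors in the genome did not lean one way: of 13 tested of 15 listed, 7 were positive and 6 negative, with a median of 0.049 and 0 called. Leaving out 1 sample moved that median between -0.11 and 0.17. The smallest p belonged to Ap1m2, near Cdkn2d, with 0.64 (SE 0.19), and to Cpne5, near Cdkn1a, with -0.62 (SE 0.20), with limma adjusted p of 0.127 and 0.146. Nap1l4, near Cdkn1c, and Ddx47, near Cdkn1b, had differences of 0.28 (SE 0.15) and 0.26 (SE 0.14), but the mean of the kept Nap1l4 probes gave 0.022. Other imprinted growth genes, listed beside Cdkn1c, had 12 of 15 tested, 1 positive and 11 negative, with a median of -0.21 and 0 called. That median was 0.081 with spike-in scaling, -0.11 without null 2, -0.31 without wild type 3 and -0.39 without null 3. The 4 with the smallest p were Plagl1 (-0.76, SE 0.16, limma adjusted p = 0.0758), Meg3 (-0.75, SE 0.24), Dlk1 (-0.57, SE 0.24) and Sgce (-0.47, SE 0.30), whereas Cdkn1c itself was at 0.025. Without null 2 Dlk1 was at -0.33 and Sgce at -0.17, and without null 3 Sgce was at -0.76.

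The cell types in the samples bear on these values, since in bulk RNA fewer cells of a type and less RNA per cell cannot be told apart. Mitosis and proliferation genes had 21 of 24 tested, all 21 with positive differences and null above wild type, a median of 2.01 and 0 called. Of all entries 52.4% had a positive difference and 19.1% had null above wild type without overlap. The 2 mitosis genes with the smallest p, Bub1 and Nusap1, had differences of 2.56 (SE 0.47) and 2.39 (SE 0.46), with limma adjusted p of 0.0637 and 0.0693. The summed level of the mitosis list, in units of each array's 75th percentile, was 18.7 to 30.5 in wild type and 62.7 to 199.99 in null. Lymphocyte markers had 21 of 22 tested, all 21 with negative differences, a median of -2.53, 0 called and a summed level of 66.3 to 119.9 in wild type and 9.69 to 28.4 in null, and the 2 with the smallest p were Zap70 (-2.71, SE 0.43) and Cd28 (-2.53, SE 0.42), both with limma adjusted p = 0.0537. The lymphocyte median was -3.13 without null 3 and -2.21 without null 2. The listed genes not tested, Aurkb, Cenpf, Ttk and Blk, did not pass the filter on dim probes. The part of these cell types in the CDK inhibitor results was not tested.

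Sample by sample, the mitosis median exceeded its wild-type mean by 1.37, 3.15 and 1.63 in null 1, 2 and 3, so null 2 was highest, as it was for Cdkn2c. The lymphocyte median stood at -2.97, -3.21 and -1.37, so null 3 was nearest to wild type, as it was for Cdkn1a and Cdkn2b. That order was not particular to lymphocytes. Null 2 was also lowest and null 3 nearest for the fibroblast, myeloid, endothelial, hormone-sensing and imprinted medians, though not for that of the regulators. Cdkn2a stood at 0.90, 0.40 and 1.07, by level also with null 2 lowest and null 3 highest. Because its null values lay above wild type, null 2 was nearest to wild type and null 3 farthest. These orders cover 3 samples and are given as description.

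**Figure D5:**
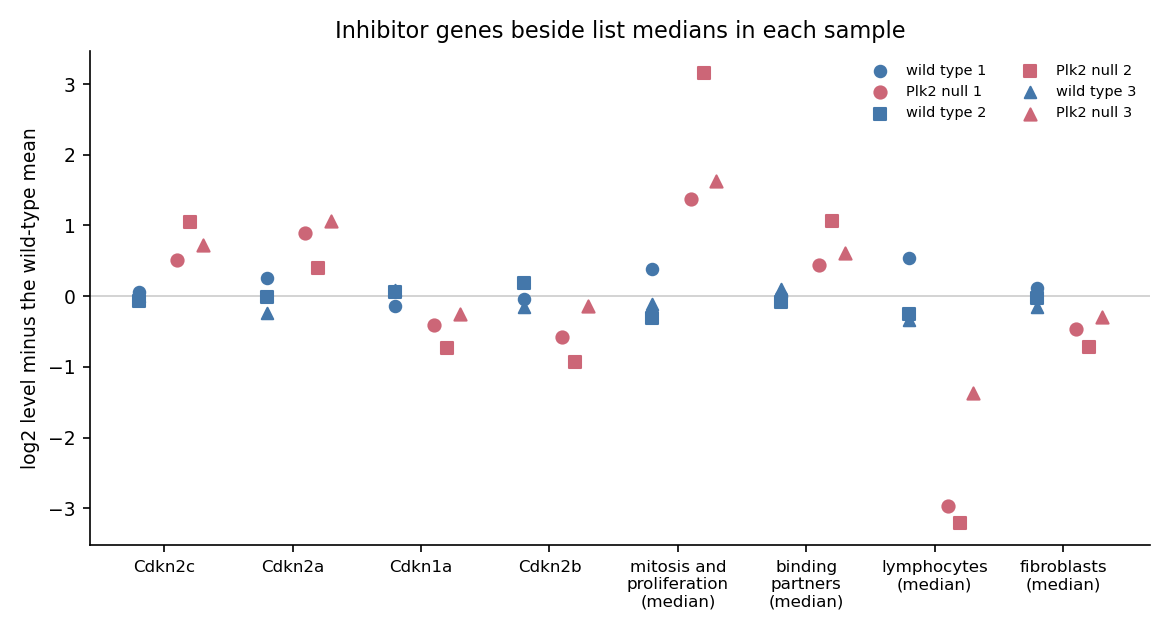
Log2 level minus the wild-type mean in the 6 samples for 4 CDK inhibitor genes and for the medians of 4 gene lists; blue is wild type, red Plk2 null, and circles, squares and triangles are samples 1, 2 and 3. The mitosis medians (1.37 to 3.15 in null) and lymphocyte medians (-3.21 to -1.37) lie farther from the wild-type mean than the null values of the 4 genes, which reach 1.07 for Cdkn2a and 1.04 for Cdkn2c.

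Epithelial and stromal markers were both measured in the 2 groups. Luminal epithelial markers had 10 of 10 tested, 6 positive and 4 negative, with a median of 0.072 and a summed level of 2036 to 2137 in wild type and 1941 to 2531 in null. Basal markers had 9 positive and 1 negative of 10, with a median of 0.51 (0.30 without wild type 1). Fibroblast markers (15 tested, 15 negative, median -0.49, summed level 1954 to 2186 in wild type and 1300 to 1853 in null), endothelial and pericyte markers (12, all negative, -0.38) and myeloid markers (14, of which 12 negative, -0.48) were measured in both groups with negative medians, adipocyte markers (8, of which 5 positive) had a median of 0.16, and none of these was called. With spike-in scaling the fibroblast, endothelial and myeloid medians were -0.21, -0.088 and -0.19. Hormone-sensing luminal markers had 9 of 10 negative, a median of -0.93 and 1 called lower, Pgr (-1.96, SE 0.26, limma adjusted p = 0.0420, a call held under 10 of 18 alternatives and lost without any 1 of the wild-type samples, null 1 or null 2), and alveolar and progenitor markers 5 of 7 tested positive and a median of 0.43, which was 1.26 over all 10 listed genes with no filter on dim probes and 0.72 with spike-in scaling. The hormone-sensing median was -1.33 without null 3 and -0.65 without null 2. In the same fit 0.333% of all entries were called lower in null. The alveolar and progenitor list was split: of the 7 tested, 3 lay higher and 2 lower in null without overlap. The gene at its median is also among the myeloid markers. The smaller medians moved with single samples: the adipocyte one was -0.13 without wild type 2 and -0.016 without null 1, the myeloid one -0.22 without wild type 1 and -0.24 without null 2, the endothelial one -0.16 without null 2, and the luminal one -0.0098 to 0.15 across the wild-type samples left out and -0.039 without null 3.

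The genes whose profile over the 6 arrays lay closest to each inhibitor were found by the root mean square distance between profiles after subtracting each gene's own mean, among 14390 genes. For Cdkn1a they were Sox9, 1110017D15Rik and Msn, at 0.0322, 0.0386 and 0.0485 log2 units. For Cdkn2c they were Acy1, H2az2 and H2az1, of which the last 2 encode forms of the histone variant H2A.Z, at 0.0269, 0.0518 and 0.0533. For Cdkn2a the nearest, Hoxd9, Fbp1 and Bco2, were farther off at 0.0906 to 0.105. Typical distances were larger: the median over all genes was 0.386 from Cdkn1a, 0.461 from Cdkn2c and 0.515 from Cdkn2a.

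Distances for the other 4 genes lay in the same range. They are not scaled to a gene's own spread about its mean, which ran from 0.13 for Cdkn1c to 0.46 for Cdkn2a. Closeness can therefore not be compared between the genes. Those of Cdkn2b were Mapre3, Atp1b2 and Abca8b (0.0419 to 0.0701), those of Cdkn1b Fchsd1, Sox1 and Arhgap5 (0.0567 to 0.0610), those of Cdkn1c Focad, Crkl and Pp2d1 (0.0288 to 0.0357) and those of Cdkn2d Fer, Cmtm7 and Ifi27 (0.0307 to 0.0523). No inhibitor was among the nearest of another, since the 7 were left out of the search. With 6 arrays and so many genes, close profiles are found for any gene, and these are descriptions of likeness only.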

How the data were processed

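Each sample was read on 1 one-colour Cy3 array of Agilent design 028005, scanned with Agilent Feature Extraction 11.0.1.1, per the file headers. The intensity used is the deposited processed signal, already background-corrected by the scanner software and not normalized between arrays; flags for well above background and outlier spots were deposited beside it. A deposited table of the whole series holds the authors' normalized intensity, p-value, ratio of wild type over null and signed fold (a score) per spot. No source used here names that table's tools.

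Log2 signals were centred on each array's 75th percentile of gene spots, control and outlier spots were left out (1119 gene spots over 6 arrays), and spots of a probe were averaged. Accessions were matched without version to RefSeq genes (GRCm38.p6, names only; 26582 probes). A probe stayed where 3 or more of 6 arrays had it well above background, and the probe with the highest mean stood for its gene, which left 24609 entries, 14417 with a symbol. Groups were compared in limma 3.58.1 (lmFit, eBayes, R 4.3.3), and p-values were adjusted by Benjamini-Hochberg over all entries. Only this fit and adjustment were tested on simulated data, not the steps before them. The number of arrays limits the precision.

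The members, the gene lists and the rule for names were chosen with earlier results of these data known. The rule names all 7 members, in each pathway list the genes past the threshold and the 4 with the smallest p, in cell type lists leading genes only, and the 3 nearest profiles of each member.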

Additional observations from a re-analysis of the deposited data

How the results depend on the processing

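The differences of the 7 CDK inhibitor genes were recomputed under 18 alternatives. Some of these change only the p-value of a reported probe and leave its difference as it was. They are the changed filters, trend and robust moderation, the replicate block and every probe as its own entry. A direction kept under them adds no support. Cdkn2a (0.48 to 1.08), Cdkn2b (-0.75 to -0.21) and Cdkn2c (0.56 to 1.05) kept their direction under all 18, and of the 7 genes Cdkn2c alone passed under any, with array weights (0.79, adjusted p = 0.0499). Cdkn1a turned to 0.11 with the mean of its probes, and Cdkn1c to -0.024 with quantile normalization and -0.038 with the deposited normalized values. Leaving out 1 sample gave -0.57 to -0.33 for Cdkn1a, -0.0048 to 0.25 for Cdkn1b, -0.062 to 0.15 for Cdkn1c, 0.65 to 0.98 for Cdkn2a, -0.75 to -0.36 for Cdkn2b, 0.62 to 0.88 for Cdkn2c and -0.038 to 0.25 for Cdkn2d. Among the dim second probes, that of Cdkn2a was at -0.0078 with normexp and at -0.27 to 0.49 with 1 sample left out, and that of Cdkn2b at 0.070 with spike-in scaling and at -0.50 to 0.068 with 1 sample left out. Mdm2 turned to 0.0064 with spike-in scaling.

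The number of entries called, 54 higher and 82 lower in null, moved far more: to 689 and 520 with normexp, 176 and 164 with median centring, 250 and 125 with spike-in scaling, 5 and 26 with no filter on dim probes, 203 and 179 with probes well above background on all 6 arrays, 388 and 386 with the deposited normalized values, 443 and 388 with trend and robust moderation, and 688 and 768 with array weights. Leaving out 1 sample gave 1 to 240 higher and 6 to 498 lower, with the most calls without null 3 and the fewest without wild type 2 or null 1. Apart from the changed numbers of entries or samples, the cause was not tested.

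With the replicate number as a block, 2 entries were called higher and 6 lower, Ets1 lost its call (adjusted p = 0.127) and no CDK inhibitor passed (Cdkn2c at 0.76, adjusted p = 0.186). Same-numbered samples did not deviate together (correlations of -0.119, 0.0379 and -0.0183), and wild type 1 was closest to null 3 (0.174), so the numbers were not taken to pair the samples. The second probes were not well above background on every array, which limits what they show; the reported Cdkn2b probe was well above background on all 6 arrays.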
